A study of Mus musculus with 31 samples.

Results

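The mitochondrial respiratory chain was examined through 102 nuclear genes of 21631 protein-coding mouse genes on the autosomes and X. They were chosen by symbol: all genes beginning with Nduf, Sdh, Uqcr, Cox4 to Cox8 or Atp5, together with Cyc1 and Cycs, and without pseudogene symbols. By complex, 49 genes belonged to complex I, 8 to complex II, 9 to complex III, 18 to complex IV and 17 to complex V, and Cycs encodes the mobile carrier cytochrome c. The set includes assembly factors that share these symbols. Ndufa4 was kept in complex I by its symbol, although its protein was later placed in complex IV.

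Chromatin immunoprecipitation with sequencing (ChIP-seq) was carried out on hippocampi of 16 C57BL6 mice aged 30 days, with antibodies to trimethylated (H3K4me3) and monomethylated (H3K4me1) lysine 4 of histone H3. The 4 groups were KMT2D+/bGeo heterozygotes given TAK-418, KMT2D+/bGeo heterozygotes given vehicle, KMT2D+/+ wild types given TAK-418 and KMT2D+/+ wild types given vehicle. Every group held 4 H3K4me3 libraries, each from its own mouse, and H3K4me1 libraries numbered 15 in all. TAK-418, an inhibitor of the H3K4 demethylase LSD1, was given by gavage at 1 mg/kg/day in methylcellulose for 2 weeks, and vehicle mice received methylcellulose alone. Kmt2d encodes a methyltransferase of the same lysine, and the bGeo allele is a reporter insertion in 1 of its 2 copies. The bulk hippocampus mixes neurons and glia, so a different cell makeup and a different level per cell cannot be told apart here. No source used here gives the sex of the mice.

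The respiratory chain passes electrons from NADH (complex I) and succinate (complex II) through ubiquinol to complex III, by cytochrome c to complex IV and so to oxygen, and the proton gradient built on the way drives ATP synthesis by complex V. Neurons depend on it for the ATP that ion pumping and synaptic transmission use. Most subunits are encoded in the nucleus by broadly active genes with CpG-rich starts, where H3K4me3 usually lies over the first nucleosomes, while several subunits of complex IV have isoforms restricted to heart, muscle, lung or testis.

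Peak lists fell into 2 kinds. In 4 H3K4me3 libraries, 1 per group, the authors' lists held 13343 to 16750 peaks and placed a peak within 2 kb of an end of 12056 to 13149 genes. In the other 12 they held 302 to 2281 peaks, at 49 to 1954 genes. The long lists came from replicate 3 of the treated heterozygotes, replicate 2 of the vehicle heterozygotes, and replicate 3 of both wild type groups. As 1 long list stood in each group, it gave no replicate within a group, and read depth was unknown from these files. In the long lists 5 of 6 hippocampal excitatory neuron markers carried a peak in all 4 libraries, as did 1 of 3 inhibitory neuron and 2 of 3 oligodendrocyte lineage markers. Of 3 astrocyte markers 2 had a peak in some long list and 0 in all 4, and of 3 microglial markers 0 had one in any. Of 4 markers of other organs, 1 had a peak in 1 long list. Kmt2d itself had a peak in 5 of the 16 H3K4me3 libraries, and that peak does not read the bGeo insertion.

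Most respiratory chain genes carried H3K4me3. In the 4 long lists 89 genes had a peak in the TAK-418 heterozygote, 86 in the vehicle heterozygote, 90 in the TAK-418 wild type and 87 in the vehicle wild type. A peak was present in all 4 for 84 of the 102 genes (82.4%), against 11247 of all 21631 genes (52%), and in none for 11 of the 102 (10.8%), against 7822 of all genes (36.2%). The authors' fold enrichment at the strongest peak of a gene had a median of 5.95 over the respiratory chain genes with a peak and 5.60 over all such genes, and the median peak width was 1010.5 bp and 988.5 bp. The respiratory chain genes were thus marked more often than genes in general, with peaks of a similar height and width.

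**Figure D1:**
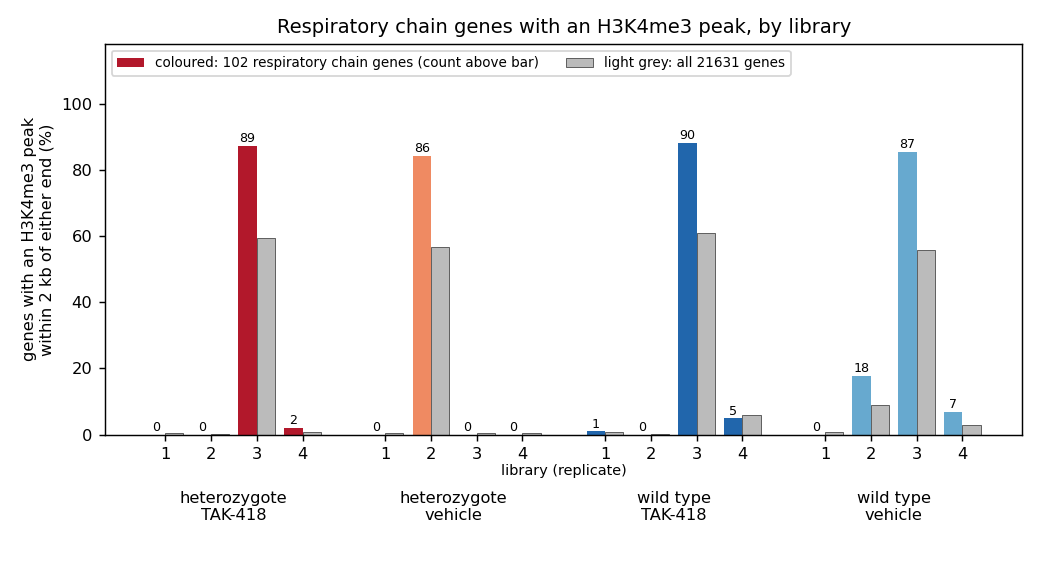
Percentage of genes with an H3K4me3 peak within 2 kb of either end in each of the 16 libraries (vertical axis), by group and replicate (horizontal axis). Coloured bars are the 102 respiratory chain genes with their count above, and light grey bars are all 21631 genes. In 1 library of each group 86 to 90 of the 102 genes carry a peak, and in the other 12 libraries 0 to 18 do.

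Among the 12 short lists, 5 held any respiratory chain gene and 7 held none. The counts were 0, 0 and 2 in the TAK-418 heterozygotes, 0, 0 and 0 in the vehicle heterozygotes, 1, 0 and 5 in the TAK-418 wild types, and 0, 18 and 7 in the vehicle wild types. In replicate 2 of the vehicle wild types the 18 genes were 17.6% of the set, against 9.03% of all genes. In replicate 4 of that group the 7 genes were 6.86%, against 2.95%. In replicate 4 of the TAK-418 wild types the 5 genes were 4.90%, against 5.99%, so the set did not stand above all genes in every library. Atp5j, which encodes coupling factor 6 in the stalk of ATP synthase, was the sole gene of the set with a peak in 3 short lists. The H3K4me1 lists, with 88 to 456 peaks, placed none at any of the 102 genes in any of the 15 libraries. At 16 to 65 of all genes (0.074% to 0.300%), these H3K4me1 lists were too short for that absence to set the 102 genes apart. The authors' 4 differential lists for that mark likewise held 0 of the 102 genes in either direction. Of all genes, 0.125% were listed as lower and 0.217% as higher in vehicle heterozygotes against vehicle wild types. With TAK-418 in heterozygotes it was 0.139% and 0.143%, with TAK-418 in wild types 0.139% and 0.157%, and in treated heterozygotes against vehicle wild types 0.106% and 0.171%.

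The complexes differed in peak enrichment. Complex V was marked throughout, with a peak in all 4 long lists at 17 of 17 genes and a median fold enrichment of 6.71. Complex III was the most enriched, with 8 of 9 genes marked in all 4 lists and a median of 7.06, and its median gene stood at percentile 81.0 of all marked genes ranked by fold within each library. For complex V that percentile was 69.1. Complex I had 43 of 49 genes marked in all 4 lists and a median fold of 5.62, which put its median gene at percentile 52.5, near the middle of all genes. Complex II had 7 of 8 and a median of 5.84. These are levels in 4 libraries of 4 different groups, given with no test.

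**Figure D2:**
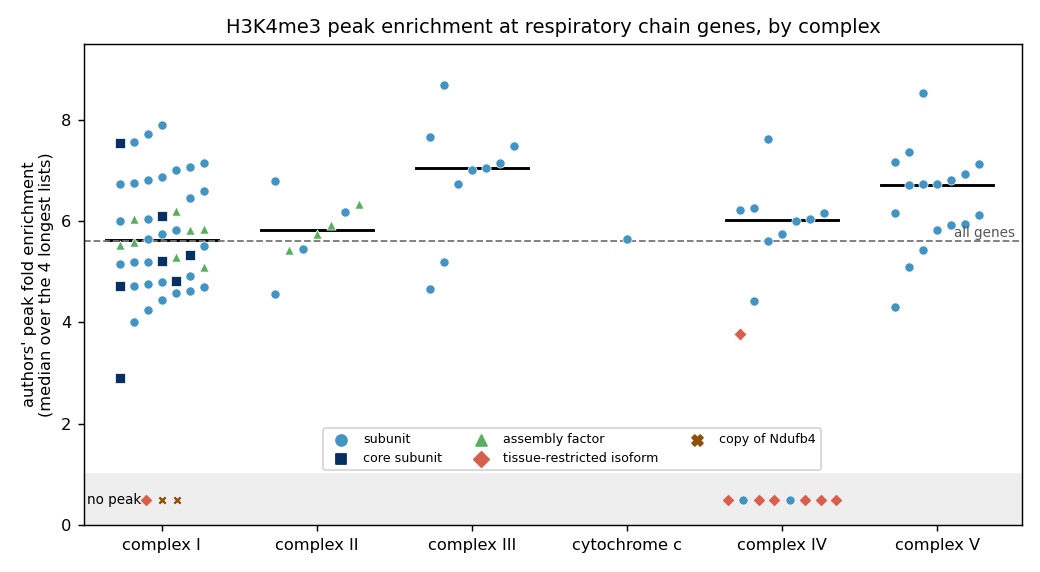
Authors' fold enrichment of the strongest H3K4me3 peak at each respiratory chain gene, as the median over the long lists that hold one (vertical axis), by complex (horizontal axis). Each point is a gene with its shape giving its role, black lines are complex medians, the dashed line is the median of all genes, and points in the grey strip had no peak at an end in any long list. The medians of complexes III (7.06) and V (6.71) lie furthest above the dashed line (5.60), and the tissue-restricted isoforms of complex IV lie in the strip or at the foot of the column.

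In complex V the highest gene was Atp5g3, which encodes the c subunit of the membrane rotor. Its fold enrichment was 8.76 in the TAK-418 heterozygote, 6.63 in the vehicle heterozygote, 9.59 in the TAK-418 wild type and 8.30 in the vehicle wild type. That placed it at a median percentile of 96.5, the highest of the set. Its paralog Atp5g1, which encodes the same mature protein, was the lowest of complex V, with 7.14, 3.02, 4.60 and 4.02 in the same order of groups. Atp5g2, the third gene for that subunit, lay between them at a median of 5.82. Atp5a1, which encodes the alpha subunit of the catalytic head, had a median of 7.16. The strongest peak at an end was not always the one over the start. Of 270 pairs of gene and library with a peak over the RefSeq start, 11 had a strongest peak of another width. These were at 5 genes (Atp5b, Atp5d, Ndufb10, Ndufs8 and Ndufv2), and where the other peak lay was not examined. Cox5a and Cox7a2, with no peak at an end, could not be counted in this way.

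In complex III, Uqcrc1, a core protein of the matrix arm, had fold enrichments of 10.04 in the TAK-418 heterozygote, 5.33 in the vehicle heterozygote, 11.2 in the TAK-418 wild type and 7.34 in the vehicle wild type. Cyc1, the cytochrome c1 that hands electrons to cytochrome c, had 6.27, 5.77, 10.5 and 9.07 in that order. Both stood above percentile 90 of all marked genes, at medians of 94.0 and 92.6. Uqcrh, the hinge protein that helps cytochrome c dock, carried the widest peak of the whole set (median 2482 bp). Uqcr10, a small subunit, was the lowest of complex III, at a median fold of 4.66.

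In complex I the 7 genes classed as core subunits, which bind the cofactors and have bacterial counterparts, were marked in all 4 lists at 6. Ndufs3, a core subunit of the peripheral arm, had a median fold of 6.11. The 31 accessory subunits were marked in all 4 lists at 30 genes. Assembly factors were marked in all 4 at 7 of 8, Ndufaf1 having a peak in the TAK-418 animals of both genotypes alone, at 7.02 in the heterozygote and 5.06 in the wild type. With 1 library per group, that split cannot be told apart from the libraries themselves. The authors' differential list for wild types ran the other way at Ndufaf1. There the region over its start was listed as lower with TAK-418, at a ratio of mean scores of 0.371 with overlapping groups. Between TAK-418 and vehicle heterozygotes Ndufaf1 was not listed in either direction. The cause of this conflict in wild types was not tested.

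In complex II all 4 catalytic and anchor subunits were marked in all 4 lists, with median folds of 4.56 at Sdha, 5.44 at Sdhb, 6.78 at Sdhc and 6.17 at Sdhd. The assembly factor Sdhaf4 had a peak in the wild types alone, at 4.93 with TAK-418 and 7.75 with vehicle. The carrier gene Cycs was marked in all 4 lists, at a median fold of 5.65 and percentile 41.1.

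Complex IV held most of the unmarked genes. A peak in all 4 lists was found at 8 of its 18 genes, and 8 had none at either end. Of those 8, 6 are isoforms restricted to other tissues: Cox4i2 (lung), Cox6a2, Cox7a1 and Cox8b (heart and skeletal muscle), and Cox7b2 and Cox8c (testis). The testis isoform Cox6b2 was the exception, with weak peaks of 3.78 in the TAK-418 heterozygote, 2.70 in the vehicle heterozygote and 3.77 in the TAK-418 wild type and the lowest median percentile of the set (2.16). Among the counterparts of wide use, Cox4i1, Cox6a1, Cox6b1 and Cox8a were marked in all 4 lists, at median folds of 5.998, 6.05, 6.27 and 5.74 in that order. Cox7b, the counterpart of Cox7b2, had a single peak, 4.41 in the TAK-418 heterozygote, and Cox7a2, that of Cox7a1, had none at an end. In complex I, Ndufa4l2 and the short genes Ndufb4b and Ndufb4c also had none, while Ndufb4 was marked in all 4 at a median of 5.64.

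The other unmarked genes of complex IV, Cox5a and Cox7a2, were missed by the rule on gene ends and not by the mark. Their annotated spans begin further out than the start in the RefSeq promoter table, which lies 3904 bp inside the nearest end for Cox5a and 4612 bp for Cox7a2. At that start Cox5a, a subunit on the matrix side, carried fold enrichments of 7.09 in the TAK-418 heterozygote, 3.58 in the vehicle heterozygote, 8.26 in the TAK-418 wild type and 6.96 in the vehicle wild type. Cox7a2, the isoform of Cox7a used outside heart and muscle, carried 7.42, 3.52, 4.02 and 5.22 in that order. Both were therefore marked in all 4 lists at their start. Of 83 genes of the set with a start in that table, 72 had a peak within 2 kb of it in all 4 lists, and 9164 of 17274 genes in general did.

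Around those starts the peaks reached further into the gene than away from it. Where a peak covered the start, its median length downstream was 652 bp in the TAK-418 heterozygote, 560 bp in the vehicle heterozygote, 655 bp in the TAK-418 wild type and 569 bp in the vehicle wild type. The medians upstream were 418.5, 409, 404 and 342 bp in that order. The downstream arm was the longer at 50 of 72, 46 of 65, 49 of 71 and 42 of 62 genes.

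**Figure D3:**
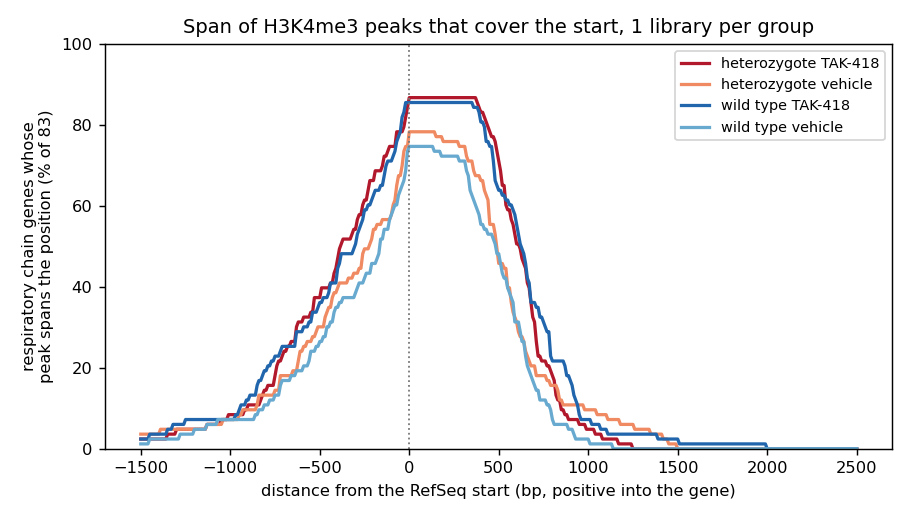
Percentage of the 83 respiratory chain genes with a RefSeq start whose H3K4me3 peak over the start also spans a given distance from it (vertical axis), against that distance in bp, positive into the gene (horizontal axis). Each line is the long-list library of 1 group. All 4 lines are asymmetric, with median arms of 560 to 655 bp into the gene and 342 to 418.5 bp away from it.

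Many of the peaks lay between neighbouring genes. The strongest peak also lay within 2 kb of an end of another gene for 46 of 89 marked genes (51.7%) in the TAK-418 heterozygote, against 30.8% of all marked genes. The share was 50.6 to 53.5% over the 4 long lists, against 30.6 to 31.4%. Some neighbours serve mitochondria too: Atp5j lies beside Gabpa, which encodes a transcription factor of respiratory genes, Ndufb5 beside Mrpl47 and Ndufs6 beside Mrpl36, both mitochondrial ribosomal proteins, and Sdhd beside Timm8b, an import factor. Others do not, such as Ndufb10 beside Rps2 and Ndufa7 beside Rps28, both cytosolic ribosomal proteins. A value at such a peak belongs to both genes.

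Of the 9 genes that appeared in 3 of the authors' differential lists, the most of any, the starts of 4 are shown, taken in order of their highest authors' −log10 p, from RefSeq on GRCm38.p6, as the 250 bases before the start, 5′ to 3′ on the gene's own strand with CpG dinucleotides in capitals. Cyc1 came first in that order but is named without a sequence. Cox7a1, the muscle isoform without a peak, is set last beside its relative Cox7a2l and was picked after its values were seen. The windows are chr17:83514334-83514583 (minus strand) for Cox7a2l, chr13:86046796-86047045 (minus) for Cox7c, chr13:114388095-114388344 (minus) for Ndufs4, chr16:84835626-84835875 (minus) for Atp5j, at the start nearest to its listed regions, and chr7:30183921-30184170 (plus) for Cox7a1.
Cox7a2l: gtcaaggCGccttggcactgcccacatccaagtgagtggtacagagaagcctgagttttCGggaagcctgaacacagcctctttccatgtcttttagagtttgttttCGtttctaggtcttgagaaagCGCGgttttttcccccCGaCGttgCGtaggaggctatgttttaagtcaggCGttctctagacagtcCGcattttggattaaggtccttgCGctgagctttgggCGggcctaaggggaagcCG
Cox7c: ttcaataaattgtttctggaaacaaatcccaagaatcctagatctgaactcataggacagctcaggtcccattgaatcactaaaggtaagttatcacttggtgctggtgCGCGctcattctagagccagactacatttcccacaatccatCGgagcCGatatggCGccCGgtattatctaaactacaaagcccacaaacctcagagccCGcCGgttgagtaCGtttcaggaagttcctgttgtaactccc
Ndufs4: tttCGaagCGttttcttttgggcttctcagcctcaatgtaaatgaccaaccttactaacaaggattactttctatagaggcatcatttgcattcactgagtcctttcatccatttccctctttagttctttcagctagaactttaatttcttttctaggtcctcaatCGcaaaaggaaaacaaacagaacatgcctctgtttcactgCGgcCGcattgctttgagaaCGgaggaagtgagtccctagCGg
Atp5j: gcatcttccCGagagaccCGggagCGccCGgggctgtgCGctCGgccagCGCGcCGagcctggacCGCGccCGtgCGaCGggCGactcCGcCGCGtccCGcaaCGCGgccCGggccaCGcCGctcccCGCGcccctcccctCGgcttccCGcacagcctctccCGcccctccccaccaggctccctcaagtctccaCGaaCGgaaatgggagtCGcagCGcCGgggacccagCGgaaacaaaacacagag
Cox7a1: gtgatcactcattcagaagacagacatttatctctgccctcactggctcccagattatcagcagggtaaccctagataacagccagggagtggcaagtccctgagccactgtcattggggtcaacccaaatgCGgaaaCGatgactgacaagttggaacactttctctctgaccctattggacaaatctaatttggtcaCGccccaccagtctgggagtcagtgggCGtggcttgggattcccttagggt
The 4 marked starts hold 13, 9, 7 and 35 CpG in that order and the unmarked Cox7a1 start holds 4.

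Over the window from 250 bases before to 50 after each start, the 83 respiratory chain genes in the table had a median of 20 CpG and 58.7% G or C, against 15 CpG and 56.5% over 17274 genes. For a gene with several starts the highest CpG count and the median share of G or C were taken. The 5 tissue-restricted isoforms and copies with an entry had 2 to 10 CpG (median 7), and the other 78 had 5 to 44 (median 20). The part of CpG content in the peaks was not tested. Cores of 7 bases that factors of respiratory genes recognise were searched on both strands in the same windows, and a match at any start of a gene counted. The core GCGCATG of nuclear respiratory factor 1 stood in 16 of 83 (19.3%), against 5.45% of all genes, and CCGGAAG of the ETS family, to which GABPA belongs, in 22 (26.5%), against 13.1%. The core ATGGCGG of YY1 stood in 13 (15.7%), against 6.12%, and AAGGTCA of the estrogen-related receptor alpha in 8 (9.64%), against 4.72%. In the 5 windows shown none of the cores occurred before the start, and ATGGCGG stood 38 bases after that of Ndufs4. A match is a run of letters and no evidence of binding.

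For the 2 genotypes without treatment, the authors' list of regions that differed between vehicle heterozygotes and vehicle wild types was used. The list gives 4 whole-number scores per group without naming the library behind each, and a −log10 p of at least 1.3. No source used here states the scale of the scores, so they are compared within 1 list. Of the 102 genes, 14 (13.7%) had a region listed as lower in heterozygotes and 0 as higher, against 7.04% and 0.356% of all genes. Among genes with a peak in all 4 long lists the share listed as lower was 14 of 84 (16.7%), against 13.4%, and as higher 0 of 84, against 0.64%, so that at equal marking the set lay near the background. The list as a whole was 86.0% lower regions. Over all its regions the median scores by position were 64, 100, 61 and 48 in heterozygotes, against 72, 108, 144 and 107 in wild types. Lower yield of the heterozygote libraries and an effect of genotype cannot be told apart here. By complex the 14 were 5 of 49 in complex I, 0 of 8 in II, 4 of 9 in III, 3 of 18 in IV and 2 of 17 in V.

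No region passed a test on the same scores after adjustment. With limma on log2(score + 1) over all 2015 regions, 0 regions passed an adjusted p of 0.05, and 82 (4.07%) had an unadjusted p under 0.05, 2 of them among the 14. The smallest adjusted p at the 14 was 0.575. The median log2 difference was -0.86 at the 14 regions, all of them lower, against -0.72 over the whole list. That list also holds 282 higher regions, which raise its median, and its lower regions were not compared on their own. Groups did not overlap at 41 regions of the list (2.03%) and at 1 of the 14.

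That region was at Ndufs4 (chr13:114387701-114388050), 44 bp from the start of a complex I subunit whose loss causes Leigh syndrome in humans. Its scores were 54, 57, 30 and 32 in heterozygotes, against 58, 110, 92 and 93 in wild types. Every heterozygote score lay under every wild type score, by 1 unit at the nearest pair. The means were 43.2 ± 14.2 and 88.2 ± 21.8 (SD, n = 4 each), a ratio of 0.490. The exact permutation test gave a two-sided p of 0.0286, the smallest that 4 against 4 allows, and limma a log2 difference of -1.03 ± 0.58 (SE) with an adjusted p of 0.575.

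In complex I, Ndufc1, a small membrane subunit, scored 10, 15, 16 and 30 in heterozygotes, against 50, 55, 95 and 19 in wild types. The groups overlapped through the lowest wild type score. Its ratio of means, 0.324, was the lowest of the 14, and its authors' −log10 p of 4.17 the highest. Ndufb6, a membrane arm subunit, scored 24, 95, 36 and 3 in heterozygotes, against 55, 37, 156 and 83 in wild types, and Ndufa6, a matrix-side subunit, 50, 91, 96 and 17 in heterozygotes, against 56, 87, 190 and 43 in wild types. At both the groups overlapped widely. The region at Ndufv2, with 127, 157, 77 and 32 in heterozygotes and 106, 126, 257 and 135 in wild types, lay 24609 bp from its own start, at the end it shares with the start of Ankrd12, and so was no measure of the Ndufv2 promoter.

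In complex III, Cyc1 scored 68, 134, 93 and 60 in heterozygotes, against 50, 98, 245 and 123 in wild types. Uqcrc2, the other core protein, scored 60, 121, 41 and 58 in heterozygotes, against 64, 88, 108 and 140 in wild types. Uqcrc1 scored 53, 79, 32 and 24 in heterozygotes, against 13, 102, 143 and 49 in wild types. The groups overlapped at each, and at Uqcrc1 the lowest score of all was a wild type one. The Uqcrh region, 581 bp from its start and beside Lrrc41, scored 98, 279, 82 and 63 in heterozygotes, against 88, 220, 267 and 104 in wild types, and the highest score was a heterozygote one. The ratios of means in complex III were 0.688 at Cyc1, 0.700 at Uqcrc2, 0.612 at Uqcrc1 and 0.769 at Uqcrh, all with an adjusted limma p above 0.05.

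In complex IV, Cox7c, a small membrane subunit, scored 14, 65, 41 and 8 in heterozygotes, against 71, 59, 100 and 61 in wild types. A single heterozygote score lay inside the wild type range. The ratio of means was 0.440 and the limma log2 difference -1.54 ± 0.70 (SE), with an unadjusted p of 0.0429 and an adjusted p of 0.575. Cox7a2l, counted in complex IV by its symbol, scored 48, 68, 29 and 44 in heterozygotes, against 32, 136, 106 and 125 in wild types, a ratio of 0.474. Here 3 wild type scores lay above all heterozygote scores and 1 lay among them. Cox6c scored 17, 112, 26 and 62 in heterozygotes, against 36, 100, 179 and 65 in wild types.

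In complex V, Atp5j, over its start beside Gabpa (chr16:84835301-84836050), scored 70, 162, 24 and 82 in heterozygotes, against 87, 103, 181 and 194 in wild types. Atp5md, a small subunit of the dimer interface beside Pdcd11, scored 50, 64, 25 and 13 in heterozygotes, against 11, 80, 117 and 90 in wild types. At Atp5j 3 heterozygote scores lay under all those of the wild types, and at Atp5md the lowest score was a wild type one. Their ratios of means were 0.598 and 0.510, and the exact permutation p-values 0.143 and 0.371.

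**Figure D4:**
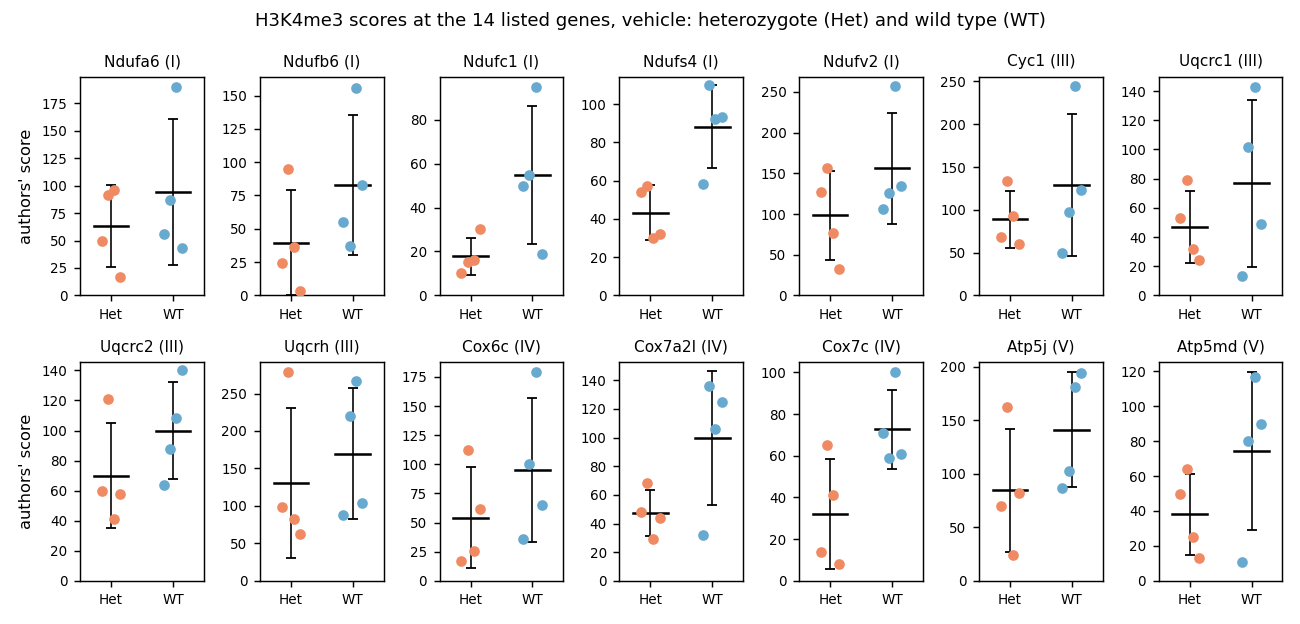
Authors' H3K4me3 scores (vertical axes, each from its own range) at the 14 genes listed as lower in vehicle heterozygotes (Het, left, orange) than in vehicle wild types (WT, right, blue), with the complex in brackets. Points are the 4 scores of a group, lines are means and bars are SD. The heterozygote mean is the lower one in every panel, and the points separate without overlap at Ndufs4 alone.

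In the list of TAK-418 against vehicle heterozygotes 2 genes were listed as lower (1.96%) and 3 as higher (2.94%), against 2.15% and 2.22% of all genes. Both shares were near the background, as were the 2.38% lower and 3.57% higher of the 84 genes marked in all 4 long lists, against 4.1% and 4.12%. Among 1715 regions, 0 passed an adjusted limma p of 0.05 and 17 (0.991%) had an unadjusted p under 0.05, 0 of them at the 5 genes. The groups overlapped at all 5, and over the list they did not at 0.35% of regions.

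Cyc1 was listed as lower, with scores of 80, 25, 150 and 31 with TAK-418, against 109, 162, 81 and 58 with vehicle. Atp5g3 was listed as lower, with 28, 32, 221 and 30 with TAK-418, against 119, 205, 85 and 41 with vehicle. At Atp5g3 3 treated scores lay under all those of vehicle and 1 stood above them all. Ndufaf6, an assembly factor of complex I, was listed as higher, with 58, 27, 107 and 81 with TAK-418, against 29, 76, 26 and 16 with vehicle, a ratio of means of 1.86 and an adjusted limma p of 0.691.

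Atp5md and Uqcrh were listed as higher, but a single score carried that. Atp5md had 5, 25, 184 and 69 with TAK-418, against 57, 77, 32 and 16 with vehicle, and Uqcrh had 50, 0, 199 and 65 with TAK-418, against 15, 110, 57 and 27 with vehicle. The ratios of means were 1.55 and 1.502, while the limma log2 differences, on log2(score + 1), were -0.08 ± 1.01 and -0.52 ± 1.28 (SE). With 10 in place of 1 added to the score they were 0.08 and 0.08. The direction at these genes thus turned with the scale. Both genes had been listed as lower in vehicle heterozygotes than in vehicle wild types, and Cyc1 was listed as lower in both lists. The vehicle heterozygotes are shared by the lists, which ties the directions to each other.

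The next list was that of TAK-418 against vehicle wild types. Here 11 genes were listed as lower (10.8%) and 5 as higher (4.90%), against 4.45% and 5.94% of all genes, with Atp5g3 in both. Among genes marked in all 4 long lists the shares were 11.9% lower, against 8.46%, and 5.95% higher, against 11.2%. Over the whole list 36.4% of regions were lower, and 12 of the 17 regions of the set were. Of 2780 regions, 0 passed an adjusted limma p of 0.05 and 66 (2.37%) had an unadjusted p under 0.05, 0 of them among the 17. The groups overlapped at all 17 regions, against no overlap at 0.54% of the list, and the smallest adjusted p among them was 0.779.

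The genes listed as lower came from complexes I (4), IV (2) and V (5). Ndufaf1, an early assembly factor of complex I, scored 22, 9, 38 and 14 with TAK-418, against 28, 61, 41 and 94 with vehicle, the lowest ratio of means of the list at 0.371. Ndufa11, a membrane subunit that shares its region with Vmac, scored 20, 15, 46 and 25 with TAK-418, against 37, 80, 51 and 88 with vehicle, a ratio of 0.414. At both a single treated score lay above the lowest vehicle score, and both had an exact permutation p of 0.0571. Ndufs4 scored 74, 63, 154 and 68 with TAK-418, against 83, 156, 141 and 139 with vehicle, so that 3 treated scores lay below all those of vehicle. Ndufa6, the fourth gene of complex I, scored 36, 13, 140 and 75 with TAK-418, against 56, 93, 216 and 44 with vehicle.

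Cox7c scored 67, 24, 94 and 43 with TAK-418, against 85, 70, 130 and 75 with vehicle. Cox7a2l scored 78, 24, 163 and 34 with TAK-418, against 37, 152, 136 and 133 with vehicle. The highest Cox7a2l score was a treated one, although the treated mean was the lower (74.8 ± 63.3 and 114.5 ± 52.3, SD, n = 4 each). In complex V, Atp5j had 46, 73, 75 and 43 with TAK-418, against 80, 49, 93 and 121 with vehicle. Atp5h, the d subunit of the peripheral stalk, had 1 listed region over its start and another 232 bp away, with ratios of 0.530 and 0.679, and Atp5md and Atp5mpl, small membrane subunits, had ratios of 0.607 and 0.621.

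Atp5g3 held 2 adjoining regions listed in opposite directions. Over the start (chr2:73911001-73911450) it scored 50, 6, 232 and 94 with TAK-418, against 80, 62, 226 and 162 with vehicle. In the next region into the gene (chr2:73910651-73911000) it scored 42, 68, 187 and 153 with TAK-418, against 72, 44, 155 and 28 with vehicle. The ratios of means were 0.721 and 1.51, with adjusted limma p-values of 0.779 at both, so neither passed.

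The other genes listed as higher were Sdhc, Sdhaf2, Uqcrfs1 and Ndufa10. Sdhc, a membrane anchor of complex II, scored 62, 107, 148 and 66 with TAK-418, against 27, 23, 125 and 29 with vehicle, with 3 vehicle scores below all treated ones and a ratio of 1.88. Uqcrfs1, the Rieske iron-sulfur protein of complex III, scored 73, 101, 302 and 100 with TAK-418, against 33, 95, 153 and 102 with vehicle, a ratio of 1.504. Ndufa10 had a ratio of 1.53. At Sdhaf2, which attaches flavin to complex II, the ratio of 1.35 rested on a treated score of 317, and the limma log2 difference was 0.00 ± 0.77 (SE).

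The list of TAK-418 heterozygotes against vehicle wild types, in which genotype and treatment both differ, held 15 genes as lower (14.7%) and 0 as higher, against 9.21% and 0.758% of all genes. Among genes marked in all 4 long lists it was 14 of 84 (16.7%) as lower, against 17.7%, and 0 as higher, against 1.3%, so at equal marking the set lay at the background. Of 2722 regions, 8 (0.294%) passed an adjusted limma p of 0.05, 0 of them at these genes, and 174 (6.39%) had an unadjusted p under 0.05, 1 of them among the 15. The groups overlapped at all 15, against no overlap at 0.404% of the list.

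That region was at Cox7c, with scores of 0, 24, 115 and 29 in treated heterozygotes, against 73, 64, 111 and 67 in vehicle wild types. Its limma log2 difference was -2.18 ± 0.87 (SE), with an adjusted p of 0.613. In this list limma gave all 15 regions the same SE, which is thus a pooled value and not the spread at Cox7c. The regions of the list that passed came from the same fit. At Cox7c the exact permutation test gave a two-sided p of 0.143. The score of 0 weighs on the log2 difference, since the ratio of means was 0.533. Cyc1 scored 112, 74, 291 and 104 in treated heterozygotes, against 110, 161, 441 and 200 in vehicle wild types, with the highest authors' −log10 p of the 15, 4.04. Ndufs4 scored 80, 16, 196 and 30 in treated heterozygotes, against 76, 145, 129 and 124 in vehicle wild types, and its highest score was a treated one.

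Sdhaf4 had the lowest ratio of means, 0.519, with 24, 32, 78 and 19 in treated heterozygotes, against 28, 51, 116 and 100 in vehicle wild types. Cox4i1, the broadly used isoform of subunit 4 beside Emc8, scored 29, 7, 80 and 45 in treated heterozygotes, against 46, 24, 101 and 131 in vehicle wild types. At both the groups overlapped in most of their range. Over the 15 genes the ratio of means ran between 0.519 and 0.728. The median log2 difference was -0.996 at their regions, all of them lower, against -0.78 over the whole list. That list also holds 750 higher regions, so the medians are not of like regions.

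**Figure D5:**
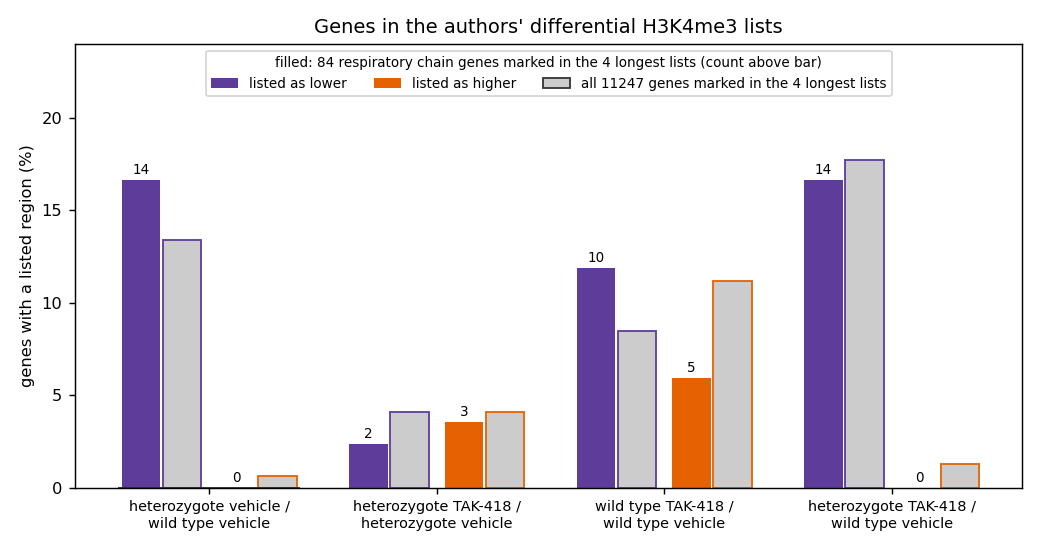
Percentage of genes with a region in the authors' differential H3K4me3 lists (vertical axis) in the 4 comparisons (horizontal axis, the first-named group over the second), listed as lower (purple) or higher (orange) in the first-named group. Filled bars are the 84 respiratory chain genes marked in all 4 long lists, with counts above, and grey bars are all 11247 genes so marked. In both comparisons of heterozygotes with vehicle wild types the set has genes listed as lower alone, 14 in each.

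Across the 4 lists 28 of the 102 genes appeared, 16 in 1 list, 3 in 2 and 9 in 3, and 74 in none. Neither these counts nor the overlaps below were made over all genes, so they show no excess over the background. The 9 were Ndufs4 and Ndufa6 of complex I, Cyc1 and Uqcrh of III, Cox7a2l and Cox7c of IV, and Atp5g3, Atp5j and Atp5md of V. Ndufv2, Ndufb6 and Atp5mpl were in 2. The lists that share vehicle wild types held several of the same genes: 9 were listed as lower in heterozygotes with and without TAK-418, 64.3% of the 14 and 60% of the 15. As the same vehicle wild type libraries entered both, this overlap is no independent repeat. At Cox7a2l, for instance, 1 wild type score of 32 to 37 stood apart from the other 3 in each of the 3 lists that use them.

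In most groups 1 score position ran above the others, and the list medians show it. In TAK-418 wild types the third position had a median score of 195 over the list, against 79, 81 and 97 at the other 3, and was the highest at 76.9% of regions. In TAK-418 heterozygotes set against vehicle wild types the third position had a median of 182, against 61, 41 and 68. The highest position bore the replicate number of the group's long list in all cases but 1. That was vehicle heterozygotes set against TAK-418 heterozygotes, with medians of 97, 96, 86 and 72, where the first position counted as highest. The scores do not name their library, so the match was not tested. Leaving the highest position out of each group, a choice made after seeing the data, raised the regions with an unadjusted p under 0.05 to 357 (17.7%), 182 (10.6%), 396 (14.2%) and 814 (29.9%) in the 4 lists as ordered above. None passed an adjusted p of 0.05. At the genes of the set the counts with an unadjusted p under 0.05 became 3 of 14, 0 of 5, 6 of 17 and 4 of 15 regions.

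Other genes of the pathway were marked as widely. A peak in all 4 long lists was found at 22 of 25 assembly factors of complexes III to V outside the set, 8 of 8 of complex I, 13 of 13 citric acid cycle genes and 10 of 11 regulators of respiratory genes, of which Gabpb1 had none. In vehicle heterozygotes against vehicle wild types 1, 0, 1 and 3 genes of these lists were listed as lower and 0, 1, 0 and 0 as higher, against 7.04% and 0.356% of all genes. Among all genes marked in all 4 long lists, the nearer background, it was 13.4% and 0.64%. The regulators listed as lower were Gabpa, at the region it shares with Atp5j, Ppargc1b and Yy1. Yy1, a factor at many respiratory promoters, scored 76, 146, 22 and 50 in heterozygotes, against 90, 233, 176 and 78 in wild types, a ratio of 0.510 with overlapping groups and an adjusted limma p of 0.575. Ppargc1b, a coactivator of mitochondrial genes, scored 52, 189, 48 and 29 in heterozygotes, against 103, 152, 215 and 100 in wild types.

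With TAK-418 in heterozygotes 1, 2, 1 and 3 genes of the same lists were listed as lower, in the same order, and 0 as higher, against 2.15% and 2.22% of all genes. Among genes marked in all 4 long lists it was 4.1% and 4.12%. Tfam, which packages and transcribes mitochondrial DNA, scored 16, 10, 101 and 8 with TAK-418, against 36, 95, 59 and 44 with vehicle, a ratio of 0.577. Here 3 treated scores lay below all those of vehicle and 1 above them. With TAK-418 in wild types 0, 0, 1 and 4 were listed as lower and 0, 0, 1 and 1 as higher, Yy1 being in both directions. That stood against 4.45% and 5.94% of all genes, and 8.46% and 11.2% of genes marked in all 4 long lists. In treated heterozygotes against vehicle wild types 3, 0, 2 and 4 were listed as lower and 0 as higher, with Suclg2, a subunit of succinyl-CoA ligase, at the lowest ratio, 0.393. Here the shares were 9.21% and 0.758% of all genes, and 17.7% and 1.3% of genes marked in all 4 long lists. None of the regions at these genes passed an adjusted limma p of 0.05.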

How the data were processed

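ChIP-seq peaks and differential regions of mouse hippocampus were used as deposited. Reads were aligned to mm10, and MACS2 and bedtools were used, per the submitters' processing notes; no source used here states their versions. Each library has a peak list, and the authors give in it a fold enrichment (a ratio) and a −log10 q per peak. Each differential list deposited by the authors gives the whole-number scores of both groups and a −log10 p per region; no source used here states how they were normalized or which library each belongs to. A region was listed as higher or lower by the means of its scores. The differential lists whose names give no mark were taken as H3K4me1. No file holds read totals, so counting intervals could not be given.

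Genes and their spans came from RefSeq on GRCm38.p6, the assembly of mm10. A peak or region counted for a gene when it lay within 2 kb of either end, and the strongest peak gave the gene's fold enrichment. Among the H3K4me3 libraries, the 4 with long lists were also those of index sets 1 and 2, as assigned here from the index sequences in the labels. A gene's percentile is its rank by fold among the genes with a peak in the same library. The members and the gene lists were chosen with earlier results of these data known. Genes were named when they stood in a differential list, had no peak in any long list, had one in 3 or more short lists, or held the 3 highest or lowest median percentiles; 1 gene this names is not reported here. Scores were tested with limma 3.58.1 in R 4.3.3 on log2(score + 1) over each whole list, with Benjamini-Hochberg adjustment, and by an exact permutation test per region; the regions had already been selected by the authors on these scores, so these tests are no independent check. The limma step was also run on simulated data with a fixed spread and no high-scoring position. That run therefore does not show the power of the test on these scores. Peaks and overlaps were computed in Python 3.11.15 with pandas 2.3.3. Each library came from its own mouse. The alternatives were windows of 1 kb, 5 kb and the gene body, stricter p and q, regions recurring in both marks left out, 10 added to the score, a mean score of at least 50, limma-trend and each score position left out in turn. Leaving out the highest-scoring position of each group was added after seeing the data.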

Additional observations from a re-analysis of the deposited data

Results flagged for a closer look

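In 3 groups 1 H3K4me3 library stood far from the other 3 in its number of respiratory chain genes with a peak: 89 genes in TAK-418 heterozygotes, against 0, 0 and 2, 86 in vehicle heterozygotes, against 0, 0 and 0, and 90 in TAK-418 wild types, against 1, 0 and 5. The same libraries held the long peak lists over all genes. In vehicle wild types the counts were 0, 18, 87 and 7, and the gap was not wide enough to be marked.

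Single scores stood far from the other 3 of their group at 10 of 102 sets of scores examined. The rule marks about 1 group in 20 where values are independent and normal. These sets share libraries, and 1 position ran high in most groups, so that rate is no background for the count. In vehicle heterozygotes set against vehicle wild types the marked score was 279 at Uqcrh. In TAK-418 against vehicle heterozygotes it was the treated score of 221 at Atp5g3. In TAK-418 against vehicle wild types these were treated scores of 119 at Atp5mpl, 302 at Uqcrfs1 and 154 at Ndufs4, a vehicle score of 125 at Sdhc and the low vehicle score of 37 at Cox7a2l. In TAK-418 heterozygotes against vehicle wild types they were treated scores of 160 at Atp5mpl, 165 at Ndufa6 and 295 at Atp5g3. All the treated values stood at the third position of the list, which also had the highest median over all regions.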

How the results depend on the processing

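No paired analysis was possible because the labels give the mice no shared replicate numbers and the scores no library names. The counts of 14 and 15 genes listed as lower in heterozygotes against vehicle wild types stayed within 1.5 times under every window and a −log10 p of at least 2, as did the other counts but these. In TAK-418 against vehicle heterozygotes, the 2 genes listed as lower became 1 within 1 kb and 0 at a −log10 p of at least 2, where the 3 listed as higher became 1. In TAK-418 against vehicle wild types that threshold left 2 lower (of 11) and 2 higher (of 5). Peaks with a −log10 q of at least 5 left 26 of the 84 genes marked in all 4 long lists. The 8 regions that passed in TAK-418 heterozygotes against vehicle wild types became 0 with log2(score + 10), with limma-trend and without the highest-scoring positions, and 0 to 11 with 1 position left out in turn. Leaving out 1 position gave 0 to 1 in TAK-418 against vehicle heterozygotes and 0 to 3 in TAK-418 against vehicle wild types. The causes were not tested.

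The log2 difference turned sign at 5 of the 51 regions of the set. With 1 position left out in turn it ran between -1.06 and 0.062 at Uqcrc1 in vehicle heterozygotes against vehicle wild types, between -0.85 and 0.80 at Atp5md and -1.46 and 1.09 at Uqcrh in TAK-418 against vehicle heterozygotes, between -0.63 and 0.52 at Sdhaf2 in TAK-418 against vehicle wild types, and between -1.10 and 0.23 at Ndufb5 in TAK-418 heterozygotes against vehicle wild types. With log2(score + 10) it was 0.0845 at Atp5md and 0.0847 at Uqcrh, and without the highest-scoring positions -0.30 at Sdhaf2. Depth could not be read from these files, and the short lists limit what absence of a peak shows.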
